A study of Mus musculus with 6 samples.

Results

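Mitosis depends on a set of genes whose products condense the chromosomes, attach them to the spindle, hold the cell until every attachment is made, and then release the sister chromatids and divide the cell. Expression of 56 such genes was examined in cells sorted as macrophages from mouse heart allografts. They are the genes of the Cdk1 kinase and its cyclins, the Aurora and Polo kinases, the kinetochore, the spindle checkpoint, condensin, mitotic exit and cytokinesis, grouped by known function. The list was chosen with earlier results of these data known, so its counts beside all genes are a description and not a test. Of the 56 genes, 54 were read by a probe set that carries exactly 1 gene symbol, among 22180 such genes in all. Ccnb1 was not analysed here, and Ncapg is given apart because its probe set also carries the symbol Lcorl.

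Hearts of BALB/c donors had been placed in fully allogeneic C57BL/6 recipients, and macrophages in the grafts were collected by flow sorting on day 6. Recipients of 3 samples received mTORi-HDL, a nanoparticle of high-density lipoprotein that carries an inhibitor of the kinase mTOR, at 5 mg/kg on days 0, 2 and 5. The remaining 3 samples came from recipients that had no treatment and rejected the graft. The labels give no age, no sort marker and no statement on whether a sample came from 1 recipient or a pool, and there was no group with the carrier alone. The p-values therefore measure only the spread between these samples, which may be technical. Each sample gave 1 array of 41345 log2 expression values, amplified from 15 ng of RNA. All levels below are on that log2 scale, on arrays 1, 2 and 3 of each group in that order, and a difference is mTORi-HDL minus untreated.

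The array mTORi-HDL 1 stood apart. Across its probe sets the SD was 1.68, where the remaining 5 arrays had 2.04 to 2.09. Over probe sets it correlated with them at r = 0.708 to 0.741, and they correlated among themselves at r = 0.892 to 0.912. A straight line of its values on the mean of the other 5 had a slope of 0.641, so that bright transcripts read lower on it and dim ones higher. Results are therefore given with and without that array where it moves them.

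As background, mitotic genes are largely silent in resting cells and are switched on together late in the cell cycle. The transcription factors FOXM1 and B-MYB act with the MuvB core at these promoters, which commonly carry a short element called CHR near the start site and CCAAT boxes upstream. Most mature macrophages divide little, while activated T cells divide fast, so in cells sorted from tissue the level of these transcripts can reflect both the state of the cells and their makeup. In bulk samples such as these, fewer dividing cells and less mitotic RNA per cell cannot be told apart.

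The comparison asked how mitotic gene expression in the cells sorted as graft macrophages differed after mTORi-HDL. The level was lower on average in mTORi-HDL than in untreated samples for 53 of the 54 genes, where 41.8% of all 22180 genes were lower and 58.2% higher. For 35 of the 54 all 3 mTORi-HDL arrays lay below all 3 untreated arrays, against 5.53% of all genes, and for 0 they lay above, against 5.37%. No call survived adjustment over all genes: limma with Benjamini-Hochberg adjustment left 0 of the 54, and 0% of all genes, at an adjusted p under 0.05, with a smallest value among the 54 of 0.336 for Ube2c. At an unadjusted p under 0.05 there were 37 lower and 0 higher, where 3.07% of all genes were lower and 1.57% higher at that level. The median difference was -1.40 over the 54 genes and 0.08 over all genes, and the interquartile range of the 54 ran from -2.0 to -0.76. The mean level was lower by more than 2-fold for 35 of the 54 genes and by more than 4-fold for 14. The share of all genes past these cut-offs was not counted. No level of detection was set, so a fold that rests on low levels is uncertain. Of the 54 genes, 51 were above the median brightness of all genes, and bright transcripts read lower on mTORi-HDL 1. Among the 11090 genes above that median 58.4% were lower, with a median difference of -0.12. Of these 11090, 497 were lower and 138 higher at an unadjusted p under 0.05 (limma). T cell marker transcripts were lower on the same arrays, by a median of -1.51 over 16 markers, and their part in these differences was not tested.

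Without mTORi-HDL 1 the direction was the same for most genes. Then 51 of 54 were lower and 3 higher (53.4% and 46.6% of all genes), 34 at an unadjusted p under 0.05 (3.51% of all genes) and 0 higher (3.47%), and again 0 passed adjustment, with a smallest adjusted p of 0.121 for Ube2c. The arrays of the groups did not overlap for 39 of them, against 12.5% of all genes, with 0 higher (9.75%), and the median difference was -1.06. Of the 37 genes named by the count over 6 arrays, 32 were also at an unadjusted p under 0.05 in this one. With all arrays and with each of the 6 arrays left out in turn, 25 genes stayed at that level. Among them were Cdk1, Ccna2, Bub1b, Cenpe, Mki67 and Ube2c. These fits share most of their arrays, and the share of all genes that stayed at that level was not counted. Relative to the mean of the untreated arrays, the median of the 54 lay at -1.64, -0.99 and -1.15 on the mTORi-HDL arrays, and between -0.04 and 0.12 on the untreated arrays. On those 3 mTORi-HDL arrays 50, 50 and 53 of the genes were below the untreated mean.

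**Figure D1:**
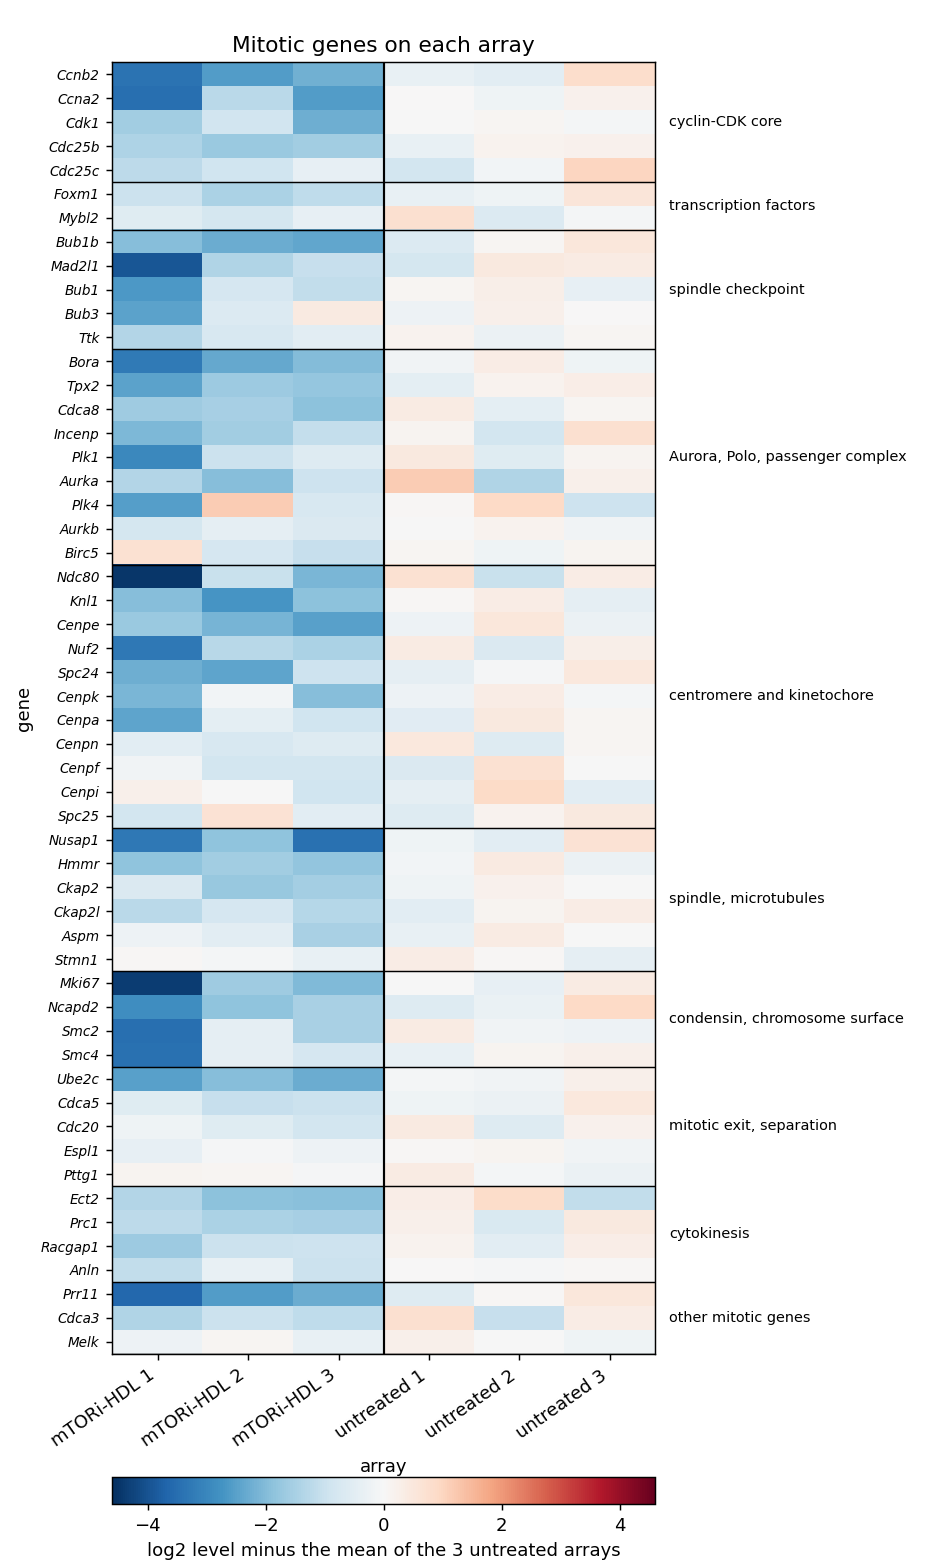
Log2 level of each of the 54 measured mitotic genes (rows, grouped by function) on each array (columns), minus the mean of the 3 untreated arrays; blue is lower. The mTORi-HDL columns on the left are blue for most rows, deepest on mTORi-HDL 1, while Pttg1, Stmn1, Melk and Espl1 stay near 0.

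Ranks within an array are unchanged by an even compression of its range, but they do not remove all that set mTORi-HDL 1 apart. The median percentile of the 85 other mitosis genes listed below was 55.9 on mTORi-HDL 1. It was 77.3 and 71.4 on mTORi-HDL 2 and 3, and 80.3, 77.3 and 81.8 on the untreated arrays. The 54 genes had a median percentile among all genes of 51.1, 66.3 and 64.2 on the mTORi-HDL arrays, against 83.0, 82.9 and 83.3 on the untreated arrays. By percentile the groups did not overlap, with mTORi-HDL lower, for 33 of the 54 genes and for 5.92% of all genes, and with mTORi-HDL higher for 0 of the 54 and 5.73% of all genes. Above the median of their array lay 28, 42 and 40 of the genes on the mTORi-HDL arrays, against 49, 53 and 53 on the untreated arrays.

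**Figure D2:**
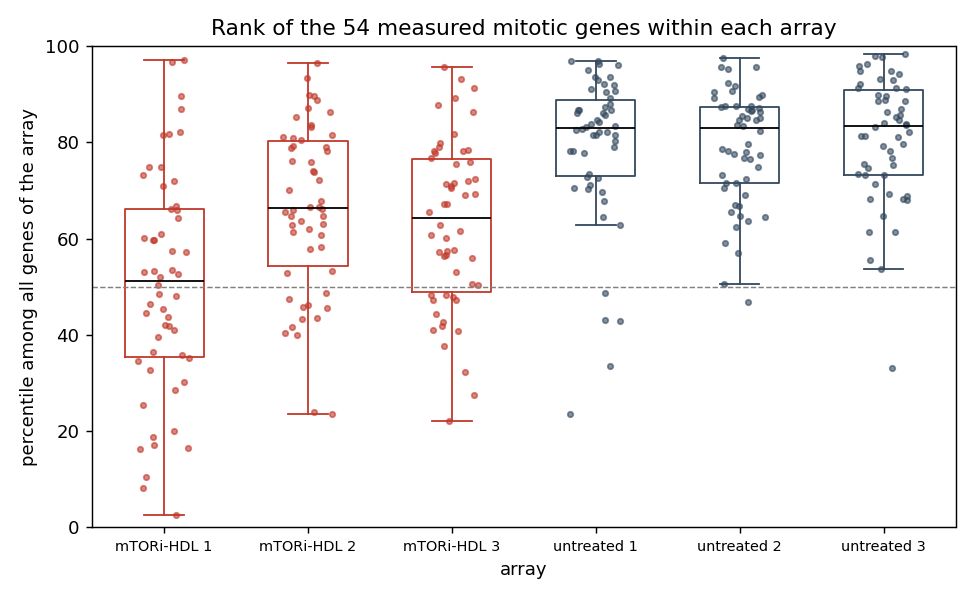
Percentile of each of the 54 mitotic genes (points) among all 22180 genes of its array, with boxes for the quartiles and the median. The medians are 51.1, 66.3 and 64.2 on the mTORi-HDL arrays and 82.9 to 83.3 on the untreated arrays; the dashed line is the median of all genes.

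Ube2c, the ubiquitin-conjugating enzyme of the anaphase-promoting complex, Bub1b of the checkpoint, Hmmr of the spindle and Prr11 were among the genes with the lowest p, and their promoters show the elements named above. The 4 sequences below are the windows of the genes with the smallest p that hold both elements, and the window of Pttg1, the gene with the difference nearest 0, stands beside them. Each runs from 250 bases before the start site to 50 after, on the gene's own strand, as RefSeq gives it for GRCm38.p6. Capitals mark CHR elements (TTTGAA on either strand, and TTCGAA) and CCAAT boxes (CCAAT on either strand).
Ube2c: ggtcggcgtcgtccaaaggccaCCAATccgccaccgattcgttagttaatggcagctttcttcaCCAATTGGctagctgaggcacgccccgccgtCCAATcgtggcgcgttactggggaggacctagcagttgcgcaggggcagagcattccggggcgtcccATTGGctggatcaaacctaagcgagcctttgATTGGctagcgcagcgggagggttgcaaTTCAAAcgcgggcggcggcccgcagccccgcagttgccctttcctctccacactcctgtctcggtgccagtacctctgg
Prr11: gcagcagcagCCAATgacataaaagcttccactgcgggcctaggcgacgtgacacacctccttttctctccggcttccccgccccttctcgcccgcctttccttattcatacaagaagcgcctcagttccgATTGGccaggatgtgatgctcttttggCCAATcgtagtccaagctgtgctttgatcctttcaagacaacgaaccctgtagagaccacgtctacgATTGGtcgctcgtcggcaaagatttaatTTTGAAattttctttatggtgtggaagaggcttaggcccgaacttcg
Bub1b: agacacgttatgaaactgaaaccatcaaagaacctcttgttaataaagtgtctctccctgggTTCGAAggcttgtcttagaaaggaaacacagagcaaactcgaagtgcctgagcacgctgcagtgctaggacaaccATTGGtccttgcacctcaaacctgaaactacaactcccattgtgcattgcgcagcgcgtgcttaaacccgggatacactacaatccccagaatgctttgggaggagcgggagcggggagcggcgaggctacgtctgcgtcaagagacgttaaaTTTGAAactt
Hmmr: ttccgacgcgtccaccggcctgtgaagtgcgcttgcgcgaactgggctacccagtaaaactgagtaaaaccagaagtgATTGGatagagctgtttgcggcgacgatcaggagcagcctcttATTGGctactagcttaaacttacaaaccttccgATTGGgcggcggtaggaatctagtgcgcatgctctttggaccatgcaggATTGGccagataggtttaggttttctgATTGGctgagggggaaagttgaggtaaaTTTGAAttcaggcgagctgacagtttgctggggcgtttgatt
Pttg1: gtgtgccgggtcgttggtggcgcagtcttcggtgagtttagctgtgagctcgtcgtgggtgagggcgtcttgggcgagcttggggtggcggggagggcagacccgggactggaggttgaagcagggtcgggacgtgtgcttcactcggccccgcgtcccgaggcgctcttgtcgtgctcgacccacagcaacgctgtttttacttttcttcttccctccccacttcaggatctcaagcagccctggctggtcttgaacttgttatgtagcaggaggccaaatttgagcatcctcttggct
The Ube2c window is chr2:164769679-164769978 on the plus strand. The Prr11 window is chr11:87108665-87108964 on the minus strand. The Bub1b window is chr2:118597961-118598260 on the plus strand. The Hmmr window is chr11:40733388-40733687 on the minus strand. The Pttg1 window is chr11:43425932-43426231 on the minus strand.

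The Ube2c window holds 1 CHR element, which begins 29 bases before the start site at position -29, and 6 CCAAT boxes, of which those at -186 and -183 overlap. Prr11 has 1 CHR element at position 4 after the start site and 4 CCAAT boxes, and Hmmr has 1 at position 9 and 5 CCAAT boxes. Bub1b has 2 CHR elements, at -188 and 41, and 1 CCAAT box. The Pttg1 window holds 0 of either. The same was true of Nusap1, Mad2l1 and Nuf2, with differences of -2.85, -2.12 and -2.0. It also held for Plk4, Mybl2, Birc5 and Melk, with differences of -0.69, -0.58, -0.38 and -0.15. Only the first window listed for each gene was read.

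Promoter windows were listed for 46 of the 56 genes. A CHR element was found in 34 of the 46 windows, or 73.9%, against 19.4% of the 27025 genes in the promoter table and 18.2% of its 17492 protein-coding genes. The element had its centre between 60 bases before the start site and 50 after it in 67.4% of the 46 windows and in 6.05% of all genes. A CCAAT box was present in 73.9% against 37.9%, and at least 2 in 45.7% against 12.2%. Both elements together were in 65.2% of the mitotic windows and 7.7% of all. The windows of 79 other mitosis genes lay between: 36.7% held a CHR element, 24.1% held it near the start site, 51.9% held a CCAAT box and 20.3% held both. Among the 44 genes that had both a window and a measured level, the 33 with a CHR element had a median difference of -1.42 and the 11 without one -0.69, and lower means were found for 33 and 10 of them. These motif counts are a description of letters in the window and say nothing about which factor is bound.

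**Figure D3:**
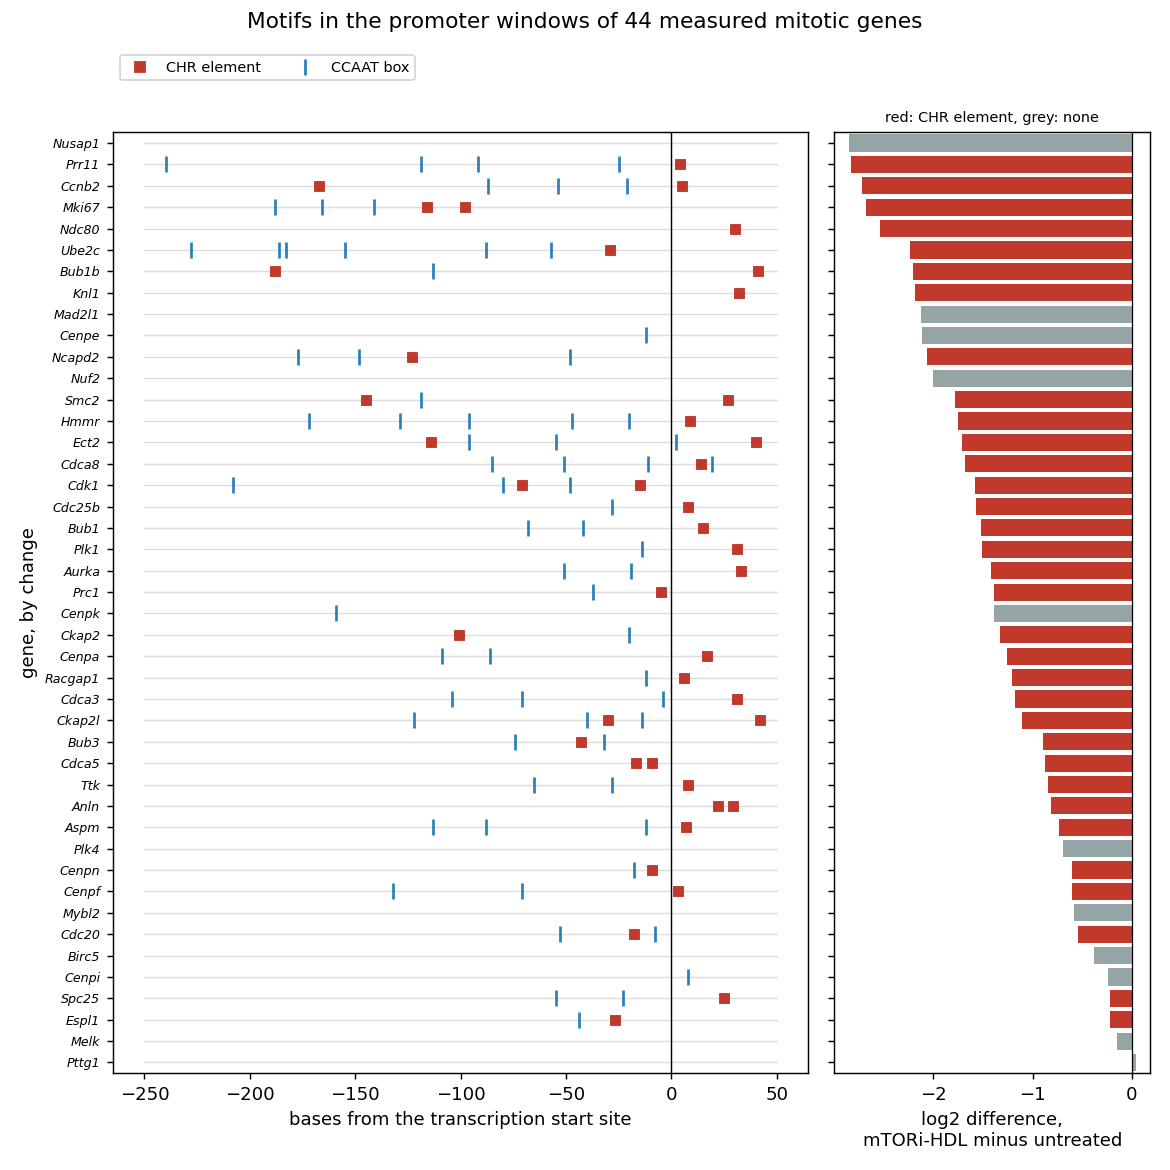
Left, positions of CHR elements (squares) and CCAAT boxes (ticks) relative to the transcription start site in the promoter windows of 44 measured mitotic genes, ordered by log2 difference. Right, the log2 difference of each gene, mTORi-HDL minus untreated, red where the window holds a CHR element and grey where it holds none; CHR elements cluster around the start site, and Nusap1 at the top and Pttg1 at the bottom have neither motif.

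Mitosis begins with Cdk1, the kinase that drives entry, its A and B cyclins, and the CDC25 phosphatases that remove its inhibitory phosphates. All 5 measured genes of this group were lower in mTORi-HDL samples, with a median difference of -1.58, and the arrays of the groups did not overlap for 4 of them. The unadjusted p was under 0.05 for 4, and for 4 or 5 with any 1 array left out. Ccnb2, cyclin B2, had levels of 5.40, 6.24 and 6.58 on the mTORi-HDL arrays, against 8.46, 8.32 and 9.60 on the untreated arrays. Its difference was -2.72 ± 0.46 (limma, adjusted p = 0.468), which is 6.6-fold lower after mTORi-HDL. Cdc25b had 4.21, 3.91 and 4.04 on the mTORi-HDL arrays, against 5.28, 5.77 and 5.83 on the untreated arrays, with a spread among the mTORi-HDL arrays that was small beside the gap to the untreated ones. For Cdc25b the difference was -1.57 ± 0.28 and -1.65 ± 0.25 without mTORi-HDL 1 (limma, adjusted p = 0.471 over 6 arrays and 0.172 without that array). Ccna2, cyclin A2, had 4.28, 6.50 and 5.17 on the mTORi-HDL arrays, against 7.76, 7.53 and 7.92 on the untreated arrays, and Cdk1 itself had 5.03, 5.73 and 4.36 on the mTORi-HDL arrays, against 6.60, 6.72 and 6.54 on the untreated arrays. Every mTORi-HDL array lay below every untreated array for both, with differences of -2.42 and -1.58. Cdc25c had a difference of -0.83 ± 0.49, and its groups overlapped: its level was 3.67 on mTORi-HDL 3 and 3.21 on untreated 1.

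Foxm1 and Mybl2 encode the transcription factors FOXM1 and B-MYB of the late cell cycle. Foxm1 had 5.09, 4.61 and 4.90 on the mTORi-HDL arrays, against 5.70, 5.86 and 6.62 on the untreated arrays, and the groups did not overlap. The difference for Foxm1 was -1.19 ± 0.33 (limma, adjusted p = 0.859). For Mybl2 they did overlap, with 4.96, 4.71 and 5.14 on the mTORi-HDL arrays, against 6.24, 4.89 and 5.43 on the untreated arrays and a difference of -0.58 ± 0.38. A dimmer probe set of Mybl2, which was not used, read 2.95, 3.70 and 3.80 on the mTORi-HDL arrays, against 5.80, 3.64 and 3.91 on the untreated arrays, where untreated 1 was again the highest.

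**Figure D4:**
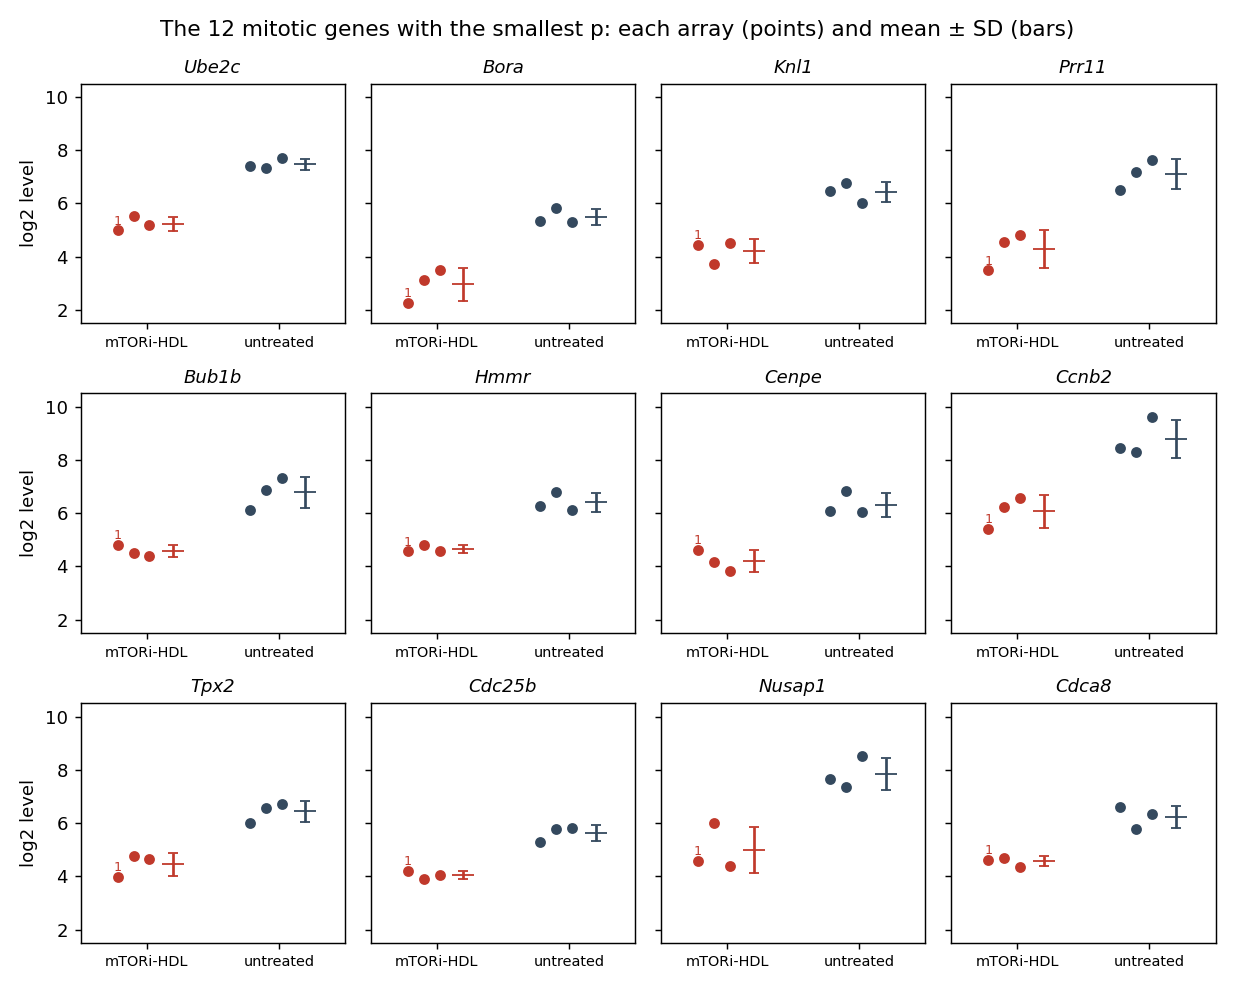
Log2 levels of the 12 mitotic genes with the smallest p, 1 panel per gene, with arrays as points (mTORi-HDL 1 is marked 1) and the mean ± SD (n = 3) beside them. In each panel the 3 mTORi-HDL points lie below the 3 untreated points, and mTORi-HDL 1 is not always the lowest.

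Aurora A matures the spindle poles, Aurora B corrects faulty attachments as part of the chromosomal passenger complex, and the Polo kinases act from centrosome to cleavage furrow. All 9 genes of this group were lower, with a median difference of -1.51, and 6 had groups that did not overlap. At an unadjusted p under 0.05 there were 6, and 4 to 6 with 1 array left out. Bora, the cofactor through which Aurora A activates Plk1, had 2.25, 3.13 and 3.48 on the mTORi-HDL arrays, against 5.33, 5.83 and 5.30 on the untreated arrays. This is a difference of -2.53 ± 0.38 (limma, adjusted p = 0.468), or 5.79-fold lower, and of -2.18 ± 0.26 without mTORi-HDL 1 (limma, adjusted p = 0.123). The levels of Bora lay at percentiles 2.55, 23.7 and 32.3 of the mTORi-HDL arrays. No level of detection was set, so its fold rests on low readings. Tpx2, which brings Aurora A to spindle microtubules, had 3.96, 4.76 and 4.66 on the mTORi-HDL arrays, against 6.00, 6.58 and 6.73 on the untreated arrays and a difference of -1.98 ± 0.34 (limma, adjusted p = 0.468). Bora and Tpx2, both partners of Aurora A, thus had lower levels on each mTORi-HDL array. Aurka itself was more variable, with 4.65, 4.02 and 5.04 on the mTORi-HDL arrays, against 7.15, 4.59 and 6.23 on the untreated arrays, and untreated 2 lay below mTORi-HDL 1 and 3.

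The passenger complex was lower in 3 of its 4 subunits without overlap. Cdca8, borealin, had 4.62, 4.71 and 4.35 on the mTORi-HDL arrays, against 6.60, 5.79 and 6.33 on the untreated arrays and a difference of -1.68 ± 0.30 (limma, adjusted p = 0.482). Incenp, the scaffold, had 4.14, 4.62 and 5.13 on the mTORi-HDL arrays, against 6.34, 5.37 and 6.96 on the untreated arrays, and Aurkb had a difference of -0.63 ± 0.26. Birc5, survivin, was the exception: its levels were 7.55, 6.06 and 5.79 on the mTORi-HDL arrays, against 6.94, 6.64 and 6.98 on the untreated arrays, so that mTORi-HDL 1 was the highest of all 6 arrays and the other 2 mTORi-HDL arrays were the lowest. The difference for Birc5 was -0.38 ± 0.47, with -0.92 ± 0.23 when mTORi-HDL 1 was left out, and it turned positive after cyclic loess (0.08) and after a linear rescaling of that array (0.18). Plk1 had a difference of -1.51 ± 0.63 and of -0.78 ± 0.34 without mTORi-HDL 1, with no overlap. Plk4, the kinase of centriole duplication, ranged from 3.43 to 7.14 on the mTORi-HDL arrays and from 5.00 to 6.87 on the untreated arrays. Its difference was -0.69 ± 0.91, and 0.22 ± 0.70 without mTORi-HDL 1, so its sign rested on that array.

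Kinetochores are the protein plates on centromeres that hold spindle microtubules. All 11 genes of centromere and kinetochore were lower on average, with a median difference of -1.39, and 5 had groups that did not overlap. At an unadjusted p under 0.05 there were 7, and 5 without mTORi-HDL 1, mTORi-HDL 3 or untreated 1, 4 without untreated 3, and 6 or 7 without either other array. Knl1, the scaffold that recruits the checkpoint proteins, had 4.44, 3.71 and 4.52 on the mTORi-HDL arrays, against 6.47, 6.76 and 6.01 on the untreated arrays. Its difference was -2.19 ± 0.34 (limma, adjusted p = 0.468), and -2.30 ± 0.34 without mTORi-HDL 1. Cenpe, a motor that carries chromosomes towards the spindle equator, had 4.62, 4.18 and 3.81 on the mTORi-HDL arrays, against 6.07, 6.85 and 6.04 on the untreated arrays, with a difference of -2.11 ± 0.35 (limma, adjusted p = 0.468). In both genes mTORi-HDL 1 was not the lowest array.

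The NDC80 complex, which binds the microtubule end, is made of Ndc80, Nuf2, Spc24 and Spc25. Spc24 had 4.39, 4.19 and 5.69 on the mTORi-HDL arrays, against 6.20, 6.58 and 7.11 on the untreated arrays and a difference of -1.87 ± 0.46. Nuf2 had 3.78, 5.80 and 5.60 on the mTORi-HDL arrays, against 7.43, 6.41 and 7.34 on the untreated arrays, with a difference of -2.0 ± 0.58, and of -1.36 ± 0.35 without mTORi-HDL 1. Ndc80 had 3.33, 6.77 and 5.72 on the mTORi-HDL arrays, against 8.50, 6.79 and 8.13 on the untreated arrays, and its difference was -2.53 ± 0.87, with -1.56 ± 0.56 when mTORi-HDL 1 was left out. These 3 subunits had no overlap between groups, although Ndc80 on mTORi-HDL 2 and untreated 2 was nearly level. Spc25 differed in this: it had 3.69, 5.20 and 4.03 on the mTORi-HDL arrays, against 3.94, 4.67 and 4.96 on the untreated arrays, with overlap, a difference of -0.22 ± 0.47, and of 0.09 ± 0.44 without mTORi-HDL 1.

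Cenpa, the histone H3 variant of centromeres, had a difference of -1.26 ± 0.54 and of -0.68 ± 0.33 without mTORi-HDL 1, with overlap. Of the inner centromere proteins, Cenpk had -1.39, Cenpn -0.60 and Cenpi -0.24, and Cenpf of the outer kinetochore had -0.60. The groups overlapped for these 4. For Cenpi the difference was -0.48 without mTORi-HDL 1, and it was positive without mTORi-HDL 3 (0.11) and without untreated 2 (0.21).

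The spindle checkpoint delays anaphase until every kinetochore is attached. Its 5 genes were lower on average, with a median difference of -1.52, and of -0.96 without mTORi-HDL 1, and 4 had groups that did not overlap. An unadjusted p under 0.05 was found for 4, and for 2 without any 1 of the 3 untreated arrays. Bub1b, which encodes BUBR1, a part of the complex that blocks anaphase, had 4.83, 4.51 and 4.41 on the mTORi-HDL arrays, against 6.14, 6.89 and 7.32 on the untreated arrays. Its difference was -2.20 ± 0.36 (limma, adjusted p = 0.468), or 4.6-fold lower, and the value without mTORi-HDL 1 was -2.32 ± 0.36. Bub1, a kinase that docks on KNL1, had 3.03, 4.90 and 4.54 on the mTORi-HDL arrays, against 5.78, 5.96 and 5.30 on the untreated arrays. The difference for Bub1 was -1.52 ± 0.50, and -0.96 ± 0.28 without mTORi-HDL 1. Mad2l1, which encodes the inhibitor MAD2, had 4.10, 6.63 and 6.98 on the mTORi-HDL arrays, against 7.23, 8.46 and 8.39 on the untreated arrays; mTORi-HDL 1 lay far below the rest, and the difference was -2.12 ± 0.76 with it and -1.22 ± 0.41 without it. Ttk, the kinase that starts the signal, had a difference of -0.85 ± 0.32. Bub3 overlapped, with 4.46, 6.29 and 7.33 on the mTORi-HDL arrays, against 6.67, 7.14 and 6.95 on the untreated arrays and a difference of -0.89 ± 0.67, which was -0.11 ± 0.35 without mTORi-HDL 1.

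On the spindle itself 6 genes were measured, and all 6 were lower on average, 4 of them without overlap and 4 at an unadjusted p under 0.05 (4 or 5 with 1 array left out). The median difference was -1.22. Nusap1, which bundles spindle microtubules near chromatin, had 4.57, 6.00 and 4.40 on the mTORi-HDL arrays, against 7.64, 7.36 and 8.52 on the untreated arrays. Of the 54 genes it had the largest difference over all arrays, -2.85 ± 0.51 or 7.23-fold lower (limma, adjusted p = 0.471). Hmmr, a hyaluronan-binding protein that also acts at spindle poles, was tight within each group, with 4.56, 4.81 and 4.59 on the mTORi-HDL arrays, against 6.29, 6.80 and 6.13 on the untreated arrays and a difference of -1.75 ± 0.28 (limma, adjusted p = 0.468). Ckap2 and Ckap2l, paralogous spindle proteins, had differences of -1.33 ± 0.35 and -1.11 ± 0.32 and no overlap. Aspm of the spindle poles overlapped, with -0.74. Stmn1, which encodes the microtubule destabiliser stathmin, had 4.80, 4.64 and 4.39 on the mTORi-HDL arrays, against 5.08, 4.79 and 4.32 on the untreated arrays. For Stmn1 the difference was -0.12 ± 0.30, and it was -0.22 without mTORi-HDL 1 and 0.05 without untreated 1. Stmn1 lay at percentiles 66.0, 63.5 and 57.2 of the mTORi-HDL arrays, against 69.7, 65.5 and 55.6 of the untreated arrays.

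Condensin folds chromatin into compact chromosomes, and Ki-67 coats their surface. The 4 measured genes all had lower mTORi-HDL arrays without overlap, with a median difference of -1.92, and 3 were at an unadjusted p under 0.05 (2 to 4 with 1 array left out). Much of the size came from 1 array: the median lay at -3.44 on mTORi-HDL 1, and at -1.03 and -1.49 on mTORi-HDL 2 and 3. Ncapd2, a subunit of condensin I, had 4.33, 5.34 and 5.72 on the mTORi-HDL arrays, against 6.59, 6.88 and 8.12 on the untreated arrays and a difference of -2.07 ± 0.52 (limma, adjusted p = 0.787). Mki67, the standard marker of proliferating cells, had 4.47, 7.18 and 6.78 on the mTORi-HDL arrays, against 8.81, 8.45 and 9.22 on the untreated arrays. The difference for Mki67 was -2.68 ± 0.68, and -1.85 ± 0.30 without mTORi-HDL 1. Smc2 and Smc4, the paired ATPases at the heart of condensin, had differences of -1.78 ± 0.71 and -1.53 ± 0.75, and of -0.95 and -0.58 without that array.

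Exit from mitosis begins when CDC20 activates the anaphase-promoting complex, which destroys securin and sets separase free. In this group 4 of 5 genes were lower on average, with a median difference of -0.54, and 2 had groups that did not overlap. These 2 were also at an unadjusted p under 0.05, and there were 1 to 3 with 1 array left out: 1 without mTORi-HDL 2, mTORi-HDL 3 or untreated 3. Ube2c had the smallest p of the 54, at 4.99, 5.52 and 5.19 on the mTORi-HDL arrays, against 7.39, 7.31 and 7.71 on the untreated arrays. Its difference was -2.24 ± 0.28, or 4.72-fold lower (limma, adjusted p = 0.336), and -2.12 ± 0.24 without mTORi-HDL 1 (limma, adjusted p = 0.121). Cdca5, sororin, which protects cohesion until anaphase, had 4.43, 3.93 and 4.01 on the mTORi-HDL arrays, against 4.79, 4.72 and 5.48 on the untreated arrays and a difference of -0.88 ± 0.32. The other genes of anaphase had smaller differences, and their groups overlapped. Cdc20 had a difference of -0.54 ± 0.35, and Espl1, separase, had -0.22 ± 0.25, and -0.14 without mTORi-HDL 1. Pttg1, securin, was the only 1 of the 54 with a higher mean in mTORi-HDL samples, at 7.86, 7.84 and 7.69 on the mTORi-HDL arrays, against 8.12, 7.65 and 7.49 on the untreated arrays. The difference for Pttg1 was 0.04 ± 0.28, and 0.01 without mTORi-HDL 1. It was below its standard error, and it was negative after median centring (-0.06), without untreated 2 (-0.01) and without untreated 3 (-0.09).

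Cytokinesis splits the cell at the midzone of the spindle. All 4 genes were lower in mTORi-HDL samples without overlap and at an unadjusted p under 0.05, with a median difference of -1.30, and 3 or 4 were at that level with 1 array left out. Prc1, which crosslinks the midzone microtubules, had 4.63, 4.39 and 4.33 on the mTORi-HDL arrays, against 6.06, 5.15 and 6.30 on the untreated arrays and a difference of -1.39 ± 0.36 (limma, adjusted p = 0.826). Racgap1, a subunit of centralspindlin, had 5.35, 6.02 and 6.05 on the mTORi-HDL arrays, against 7.18, 6.54 and 7.34 on the untreated arrays and -1.21 ± 0.34. Ect2, which activates RhoA at the furrow, had 4.34, 3.83 and 3.79 on the mTORi-HDL arrays, against 6.00, 6.53 and 4.58 on the untreated arrays; untreated 3 was the lowest of its group and still above each mTORi-HDL array. Its difference was -1.72 ± 0.51. Anln, the scaffold protein anillin, had -0.82 ± 0.30.

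Of the remaining 3 genes Prr11 had 3.48, 4.54 and 4.81 on the mTORi-HDL arrays, against 6.51, 7.17 and 7.64 on the untreated arrays. The difference for Prr11 was -2.83 ± 0.45, or 7.11-fold lower (limma, adjusted p = 0.468), and -2.43 ± 0.35 without mTORi-HDL 1. Cdca3 had 4.02, 4.40 and 4.21 on the mTORi-HDL arrays, against 6.11, 4.33 and 5.73 on the untreated arrays, with overlap because untreated 2 lay among the mTORi-HDL arrays, and a difference of -1.18 ± 0.47. Melk, a kinase often used as a proliferation marker, had a difference of -0.15 ± 0.27 and overlapped. It read near the median of all genes, at percentiles 44.6, 61.9 and 50.6 of the mTORi-HDL arrays, against 62.8, 59.1 and 53.7 of the untreated arrays. An unadjusted p under 0.05 was reached by 2 of these 3, and by 1 without any array other than untreated 2.

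A further 92 genes of mitosis, kinesins left out, were listed for comparison, and 85 of them were measured. Of these 77 were lower on average and 8 higher, and 67 were lower without mTORi-HDL 1. At an unadjusted p under 0.05 stood 18 lower and 0 higher genes, and 0 passed adjustment (limma, smallest adjusted p = 0.696). The background over all genes is the one given above, 41.8% lower and 3.07% lower at that level. Above the median brightness 58.4% of genes were lower. The median difference of the 85 genes was -0.74, and -0.43 without mTORi-HDL 1. Leaving out mTORi-HDL 1 gave 19 at that level, leaving out untreated 1 gave 11, and leaving out untreated 3 gave 10.

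Among these genes the kinetochore class had 19 of 21 lower and 8 at an unadjusted p under 0.05. Cenpw, of the inner centromere network, had 3.56, 4.35 and 5.46 on the mTORi-HDL arrays, against 5.61, 8.10 and 6.59 on the untreated arrays and a difference of -2.31 ± 0.71. Kntc1, of the complex that recruits dynein to kinetochores, had a difference of -0.91 ± 0.28. Of 10 genes of mitotic entry and its kinases 8 were lower, 5 at that level. Tacc3, a spindle protein that Aurora A phosphorylates, had 4.53, 6.17 and 5.60 on the mTORi-HDL arrays, against 7.76, 7.02 and 8.18 on the untreated arrays, a difference of -2.22 ± 0.49, and Nek2 had -1.29 ± 0.41. Trip13, an ATPase that disassembles checkpoint complexes, had -1.13 ± 0.34, the only 1 of 4 further checkpoint genes at that level, and Mad2l1bp, its adaptor, had -0.52 ± 0.43, and -0.23 without mTORi-HDL 1.

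Of 14 genes of the DREAM complex and the E2F family 13 had lower means. The unadjusted p was under 0.05 for 2 of them, and for 4 without mTORi-HDL 1. Tfdp1, the partner subunit of E2F factors, had 4.88, 6.62 and 5.81 on the mTORi-HDL arrays, against 7.59, 7.99 and 8.56 on the untreated arrays and a difference of -2.28 ± 0.49 (limma, adjusted p = 0.696), and Rbl2, the pocket protein p130, had -1.74 ± 0.57 and -1.08 ± 0.30 without mTORi-HDL 1. Of 4 cytokinesis genes, Cep55 of the midbody had -0.99 ± 0.27 and Septin9 -0.62 ± 0.26. Of 11 cohesin genes 11 were lower, 1 at that level: Rad21 had -0.71 ± 0.28 and the cohesion protector Sgo1 -0.63 ± 0.34. The cohesin median lay at -2.82 on mTORi-HDL 1 and at -0.23 and -0.24 on mTORi-HDL 2 and 3. Of 4 further condensin genes 4 were lower and 0 at that level (Ncapd3 -0.61 ± 0.30, Ncaph -0.68 ± 0.48, and -0.21 without mTORi-HDL 1). The anaphase-promoting complex class, whose subunits are not tied to division alone, had 15 of 17 lower and 0 at that level. Without mTORi-HDL 1 it had 11 of 17 lower, where 53.4% of all genes were, and a median difference of -0.36, against -0.54 with that array. Its smallest p belonged to Anapc4, at -0.96 ± 0.43 (-0.62 without mTORi-HDL 1), and to Ube2s, the enzyme that extends the ubiquitin chains, at -1.48 ± 0.77 and -0.55 ± 0.37 without mTORi-HDL 1.

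Markers of other cells differed on the same arrays as the mitotic genes. T cell markers were bright in these sorted cells: all 16 measured of 20 listed were lower in mTORi-HDL samples, 11 at an unadjusted p under 0.05 and 12 without overlap, with a median difference of -1.51, and -0.97 without mTORi-HDL 1. Of all genes 41.8% were lower, 3.07% at that level and 5.53% without overlap. The summed level of the T cell markers on the linear scale was 2806, 8963 and 7578 on the mTORi-HDL arrays, against 14675 to 16775 on the untreated arrays. Cd3d, which encodes the CD3 delta chain, had 8.37, 10.29 and 10.62 on the mTORi-HDL arrays, against 11.45, 11.31 and 11.45 on the untreated arrays, and Thy1 had 6.73, 10.53 and 10.02 on the mTORi-HDL arrays, against 11.18, 10.97 and 11.05 on the untreated arrays. Macrophage markers went the other way, with 12 of 15 measured (16 listed) higher, 6 at an unadjusted p under 0.05, and a median difference of 1.0. Of all genes 58.2% were higher, 1.57% at that level. Without mTORi-HDL 1 all 15 were higher and 10 were at that level, against 46.6% and 3.47% of all genes. The summed level of the macrophage markers was 4104, 7633 and 9766 on the mTORi-HDL arrays. On the untreated arrays it was 3604 to 4833. Brightness differs between probe sets, so sums of different lists do not measure the share of each cell type. Lyz2, lysozyme, had 10.97, 11.40 and 11.62 on the mTORi-HDL arrays, against 11.05, 11.17 and 10.80 on the untreated arrays, and Cd68 had 9.47, 10.87 and 10.87 on the mTORi-HDL arrays, against 9.60, 9.70 and 8.78 on the untreated arrays. Not every macrophage marker was bright: Mertk stood at percentiles 29.9, 60.4 and 80.3 of the mTORi-HDL arrays, against 39.7, 68.4 and 46.9 of the untreated arrays, and Mrc1 at 67.5, 77.5 and 75.5, against 60.1, 28.2 and 61.9. These 2 genes were chosen after their values were seen. The part of these cell markers in the lower mitotic levels was not tested.

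The other marker lists are set against 41.8% of all genes lower and 58.2% higher over 6 arrays, and 53.4% lower and 46.6% higher without mTORi-HDL 1. At an unadjusted p under 0.05 stood 3.07% of all genes lower and 1.57% higher, and 3.51% and 3.47% without that array. NK cell markers were lower in 7 of 8, with a median of -0.36 and -0.31 without that array, and 1 was lower at an unadjusted p under 0.05. B cell markers were lower in 4 of 5 measured, with a median of -0.79 and -0.43 without that array, where the 1 at that level was lost. Fibroblast and mural cell markers were higher in 7 of 8, with medians of 0.81 and 0.79 and 4 at that level. Dendritic cell markers were higher in 4 of 5, with medians of 0.96 and 1.44, and had 1 higher and 1 lower at that level, or 3 higher and 0 lower without that array. Cardiomyocyte markers were higher in 4 of 5, and in 3 of 5 without that array, with medians of 0.32 and 0.21 and 2 higher at that level. Neutrophil markers were higher in 4 of 6 and endothelial markers in 4 of 5, and without that array in 3 of 6 and 3 of 5. Their medians were 0.23 and 0.15, and -0.01 and 0.04 without that array, and 0 were at that level. None of these markers passed adjustment in limma's test, and their part in the mitotic result was not tested. The lowest log2 value of a marker on any array was 2.70, for Emcn on untreated 2, at percentile 15.4 of that array. No level of detection was set, so a low value does not show that a transcript was present.

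**Figure D5:**
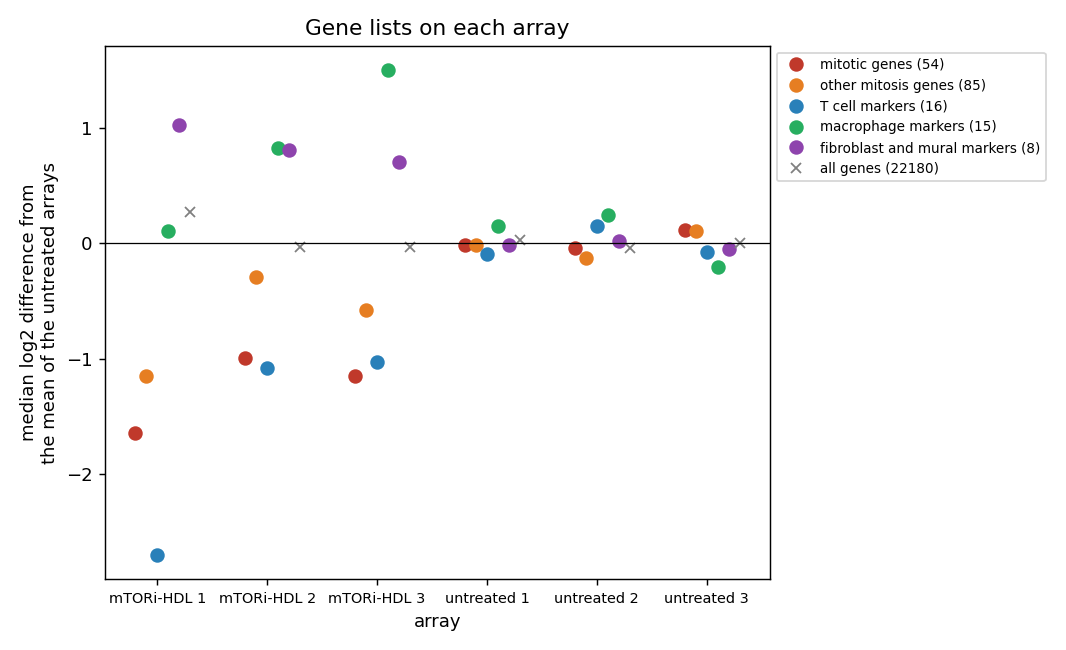
Median log2 difference from the mean of the 3 untreated arrays, for the 54 mitotic genes, 85 other mitosis genes, 3 cell marker lists and all 22180 genes, on each array. On mTORi-HDL 2 and 3 the mitotic genes lie at -0.99 and -1.15, near the T cell markers, while macrophage markers lie above 0; on mTORi-HDL 1 the T cell markers lie lowest.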

How the data were processed

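RNA of sorted graft macrophages was hybridised to 6 single-colour Affymetrix arrays, 3 from mTORi-HDL recipients and 3 from untreated recipients. The deposited values are log2 intensities of 41345 probe sets, made by the authors with RMA in Affymetrix Expression Console, per the submitters' processing notes; the versions, scan dates and probe set level are not given in the sources used here. They were used as deposited. RMA sets probe intensities of all arrays to a common distribution before summarising them, so differences are relative to all other transcripts. The number of arrays limits the precision.

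Of the probe sets 23521 carried 1 gene symbol, 1814 several and 16010 none in the platform annotation. A gene was read by its brightest probe set with 1 symbol, which gave 22180 genes. Groups were compared with limma 3.58.1 (lmFit and eBayes) in R 4.3.3, with 4 residual degrees of freedom and Benjamini-Hochberg adjustment over all 22180 genes; errors after ± are the moderated fit's standard errors. The procedure was tested on simulated data with less noise than these arrays and without a compressed array. It therefore does not show how well the fit performs on these data. Groups that do not overlap have every mTORi-HDL array on one side of every untreated array.

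The 56 genes, the 92 other mitosis genes and the marker lists were chosen with earlier results of these data known. Every measured gene of the 56 is named; values on every array are given for the 2 to 4 genes of each function with the smallest p, for any gene opposite in sign to the median, and for further genes where a sentence turns on them. Of the other mitosis genes, the 2 of each class with the smallest p are named, and of the marker lists the 2 brightest of macrophage and T cell. Promoter windows came from RefSeq on GRCm38.p6, and only the first window listed for each gene was used. Alternatives changed the scaling, the treatment of mTORi-HDL 1, the filter on dim genes, the variance model, the array weights, a replicate block, the probe set rule, the thresholds and each array left out; percentile ranks were added after seeing the data.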

Additional observations from a re-analysis of the deposited data

How the results depend on the processing

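No mitotic gene of the 54 passed an adjusted p of 0.05 in limma's test under any of the 15 other fits, and none was under 0.1 in the fit reported above. Across those 15 fits their smallest adjusted p ran from 0.0540 with array weights to 1.0. The number lower at an unadjusted p under 0.05, 37, was 26 to 35 with 1 array left out, and between 33 and 41 under the other fits. It was 24 at an unadjusted p under 0.01, where 3 of the 85 other mitosis genes stood. The share of all genes at that stricter level was not counted, so these counts have no background beside them. The median difference was -1.59 to -1.06 with 1 array left out, the smallest size without mTORi-HDL 1, and lay between -1.51 and -1.18 under the other fits. The count of other mitosis genes was 10 to 21 with 1 array left out (11 without untreated 1, 10 without untreated 3). Centring each array on its median moved the median difference of all genes to -0.03 and their share lower to 52.7%, with the 54 genes then at -1.51. In all 48 of the 54 genes were lower under every fit, and the share of all genes that were so was not counted. The exceptions were Pttg1 (-0.062 after median centring, -0.01 without untreated 2, and -0.086 to 0.23 with 1 array left out), Birc5 (0.079 after cyclic loess, 0.18 with mTORi-HDL 1 rescaled by a line), Plk4 (0.034 with array weights, and -1.63 to 0.22 with 1 array left out, the highest without mTORi-HDL 1), Spc25 (-0.67 to 0.090, the highest without mTORi-HDL 1), Cenpi (-0.48 to 0.21, with 0.11 without mTORi-HDL 3 and 0.21 without untreated 2) and Stmn1 (-0.33 to 0.054, the highest without untreated 1); the cause was not tested. Deviations from the group means correlated at 0.136, 0.135 and -0.02 between arrays of the same number. Between arrays of different numbers they correlated at -0.163 to 0.126. Deviations of the 3 arrays of a group sum to 0, so these values depend on each other. They cannot show whether the arrays were paired. With the replicate number as a block 37 genes were at an unadjusted p under 0.05, with a median difference of -1.40 and 0 past adjustment. The drug and its carrier cannot be told apart, and with 3 arrays a group and 1 that stands apart, small differences were not detectable.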

Other observations

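Some mitotic genes sit on probe sets that carry more than 1 symbol, so that the signal cannot be given to 1 gene. The probe set of Ncapg, a condensin subunit, which also carries Lcorl, read 4.31, 5.13 and 4.69 on the mTORi-HDL arrays, against 6.54, 5.94 and 6.94 on the untreated arrays. All 3 mTORi-HDL arrays were below the untreated ones, with a difference of -1.76. A probe set of Oip5 and Nusap1 differed by -1.0, without overlap between the groups, and 1 of Hjurp and neighbouring transcripts by -0.85. A probe set of Ccnf and Mir5134 was level, at 0.01. These values were not tested.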
